A study of Mus musculus with 6 samples.

Results

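Ribosome footprints of 8 mouse oocyte genes, for secreted proteins and a receptor, were followed through meiotic maturation and after a drug treatment during maturation. The genes are the growth factors Gdf9, Bmp15, Bmp6 and Fgf8, the oocyte-secreted protein genes Oosp1, Oosp2 and Oosp3, and the receptor gene Kit. They were found by name in the table of 22416 genes, and all 8 were present. All 8 also passed the filter for testing, a mean FPKM of 1 or more in the 6 libraries, which 15127 genes of the table passed. FPKM is a footprint level scaled to the length of the coding sequence and to the reads of the library.

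There were 6 Ribo-lite libraries (ribosome profiling of few cells) in 3 groups, with n = 2 libraries each and 500 oocytes per library. WT_FGO were fully grown oocytes in germinal vesicle arrest, WT_MII were control oocytes matured to metaphase II, and Treat_MII were metaphase II oocytes whose label says only that they were treated. In the study's methods the treatment is BYBX, a small molecule that binds RNA G-quadruplexes (folded G-rich stretches of RNA), and both the germinal vesicle and the metaphase II controls received its solvent DMSO. All oocytes were of wild type genotype and C57BL/6 background, from 4-week-old females taken 44 h after 5 IU of pregnant mare serum gonadotropin, and the metaphase II groups were matured in M16 medium. The labels do not say that the libraries of a group came from separate mice, so p-values measure the spread between libraries, which may be technical.

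Gdf9 and Bmp15 are ligands of the TGF-beta family that act through BMP and TGF-beta receptors on granulosa and cumulus cells, where they drive follicle growth and cumulus expansion. Bmp6 is a further ligand of that family, and Fgf8 acts with Bmp15 on cumulus cell metabolism. KIT, on the oocyte surface, works in the other direction: it receives KIT ligand made by granulosa cells and is needed for the growth of the oocyte. During maturation transcription is silent, so that footprints come from stored mRNAs, many of which are switched on by cytoplasmic lengthening of the poly(A) tail through an element in the 3′-UTR (the cytoplasmic polyadenylation element) next to the poly(A) signal.

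The 3 Oosp genes, whose footprints moved in opposite directions, also differ in their 3′-UTRs, and so the sequences are shown here. These genes are neighbours on chromosome 19 of GRCm38 (the assembly also called mm10): Oosp2 at chr19:11647279-11660559 and Oosp1 at chr19:11667460-11691150 on the minus strand, and Oosp3 at chr19:11697055-11711874 on the plus strand. Their annotated 3′-UTRs have 138, 230 and 175 bases. The windows below are 30 bases each, written 5′ to 3′ on the transcript strand, from the GENCODE M21 transcripts. Capitals mark cytoplasmic polyadenylation elements (TTTTAT or TTTTAAT, searched on the transcript strand only) and the poly(A) signal AATAAA. The first Oosp3 window holds 3 overlapping elements and the second holds the poly(A) signal with an element behind it. The Oosp1 window holds its single element, and the Oosp2 window shows the poly(A) signal of a 3′-UTR that holds no element.
Oosp3, chr19:11711736-11711765, plus strand: atgtttgcatgTTTTAATTTTATTTTAATa
Oosp3, chr19:11711829-11711858, plus strand: cacaacctataAATAAAacaTTTTATtgta
Oosp1, chr19:11667561-11667590, minus strand: gctgtccctgcTTTTAATtgtataaaatct
Oosp2, chr19:11647288-11647317, minus strand: atacatcaatgaAATAAAggctcagcttat

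The TGF-beta ligands Gdf9 and Bmp15, which are usually named as a pair, also differ here. The Gdf9 element begins 39 bases before the transcript end, whereas the last of the 3 elements of Bmp15 begins 530 bases before it, in a 3′-UTR of 1523 bases. Both windows lie in the 3′-UTR, with the element in capitals.
Gdf9, chr11:53437855-53437884, plus strand: gagtgctgtggTTTTATgtgacggaagaat
Bmp15, chrX:6314618-6314647, minus strand: ctattgactagTTTTATcacattctctctg

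An element was present somewhere in the 3′-UTR of 6 of the 8 genes (all but Fgf8 and Oosp2) and of 57.05% of the 14541 tested genes with a transcript. Among the 2933 genes with a 3′-UTR of at most 300 bases, the very shortest left out, the share was 17.1%. Oosp1 and Oosp3 were in it, while Oosp2 and Fgf8 were not. Oosp3 was the 1 gene of these 2933 with at least 5 elements, a limit set at its own count. Its elements begin 112, 106, 101, 49 and 10 bases before the end. In the last 100 bases an element was present in 3 of the 8 genes (Gdf9, Bmp6 and Oosp3) and in 18.3% of the 14541. The Oosp1 element begins 120 bases before the end, ahead of the last poly(A) signal, which begins 93 bases before it. In Bmp6 the last element begins 79 bases before the end, behind the last signal (ATTAAA) at 154 bases. Distance to the end is thus not distance to the signal. Kit and Bmp15 hold 3 elements each, the last of them 145 and 530 bases before the end. Gdf9, Kit and Bmp15 were not called higher at maturation. A match describes the letters and is not a tested site.

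**Figure D1:**
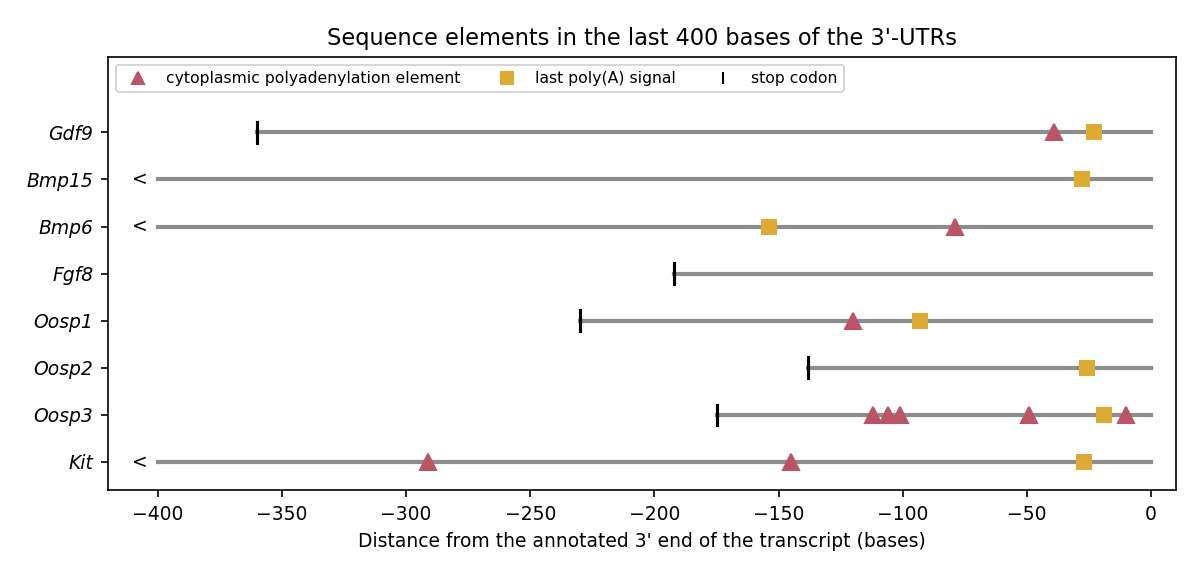
Cytoplasmic polyadenylation elements (triangles) and the last poly(A) signal (squares) of the 8 genes, drawn by the distance of their first base from the annotated end of the transcript, with the stop codon as a bar where the 3′-UTR has at most 400 bases. Oosp3 has 5 elements, Oosp1 has 1 and Oosp2 has none.

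The libraries were shallow and differed in depth. The reads recovered from the FPKM steps put the library denominators at 94309 and 107251 reads in WT_FGO, 164972 and 230907 in WT_MII, and 331304 and 275604 in Treat_MII, and between 48.2% and 57.2% of genes were at 0. Markers of the oocyte were present, 11 or 12 of 12 in every library. Of 15 granulosa or cumulus markers, 5 to 10 were above 0, with a summed FPKM of 862 and 1722 in the WT_FGO, 2233 and 424 in the WT_MII, and 326 and 357 in the Treat_MII libraries. Fewer such cells and less RNA per cell cannot be told apart in these pooled oocytes. By summed granulosa markers, the second WT_FGO library (Inha at 747 FPKM) and the first WT_MII library (Hsd17b1 at 1956 FPKM) stood apart within their groups. In the first WT_MII library Hsd17b1 made up most of the sum. Kitl was also higher there than in the second (168 against 32.3 FPKM). Amh (40.1 against 49.5), Cyp19a1 (32.1 against 54.5), Foxl2 (5.39 against 11.5) and Cyp11a1 (0 against 5.13) were lower. The other markers were slightly higher or at 0 in both. Tnfaip6 was at 0 in all 6 libraries, and Fshr and Lhcgr were at 0 in all but the second WT_FGO library. Of 4 theca markers at most 2, and of 6 blood markers at most 3, were above 0 in any library, with sums of at most 102.6 and 64.5 FPKM. In no comparison was a granulosa or theca marker called. The blood marker Hba-a1 was called lower in both metaphase II groups than in WT_FGO, but from few reads. It was at 24.9 and 43.8 FPKM in WT_FGO and at 0 in all metaphase II libraries. All 6 blood markers together held 10 and 7 reads in the WT_FGO libraries. Footprints per mRNA cannot be given, since no RNA-seq was used here, and values are relative to the library total.

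The change over maturation, WT_MII less WT_FGO, was tested with limma on log2(FPKM + 1) over all 15127 genes and a Benjamini-Hochberg adjusted p under 0.05 as the call. Oosp1 and Oosp3 rose from low levels to the top of the translatome, while Bmp15 and Oosp2 fell. Of the 8 genes 2 were called higher, where 3.67% of all genes tested were, and 2 were called lower, where 3.09% of all were. Gdf9, Kit, Fgf8 and Bmp6 did not pass the test. The lower WT_MII library exceeded the higher WT_FGO library for 2 genes (15.3% of all genes tested did so), the reverse held for 5 (25.8% of all), and Bmp6 overlapped. The median change over all genes tested was -0.44 on the log2 scale. Over all genes 555 were called higher and 468 lower, and with each library centred on its median log2 ratio 719 and 304, while the median moved to -0.08.

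Oosp1, a small secreted protein of the oocyte, was at 122 and 185 FPKM in WT_FGO, from 7 and 12 reads. It was at 11263 and 15029 FPKM in WT_MII, from 1126 and 2103 reads. The groups were far apart, and the gene went from rank 970 and 668 to rank 1 of all genes in both WT_MII libraries. The mean level was 154 ± 43.9 FPKM (SD, n = 2) in WT_FGO and 13146 ± 2663 FPKM (SD, n = 2) in WT_MII, 85.6-fold higher. The log2 change was 6.43 ± 0.25 (SE, limma adjusted p = 0.000604).

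Oosp3, its neighbour on the chromosome, was at 18.1 and 47.8 FPKM in WT_FGO, from 1 and 3 reads. In WT_MII it was at 5761 and 7248 FPKM, from 556 and 979 reads, with rank 13 and 14. The germinal vesicle level thus rests on 4 reads, no more than 3 in a library, and the ratio of pooled read rates was 195 with an exact 95% counting interval of 76.2 to 718. Such intervals, here and below, cover counting error only, since PCR copies are not independent reads. The log2 change was 7.72 ± 0.44 (SE, limma adjusted p = 0.00117).

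Oosp2, the third gene of the cluster, moved the other way. It was at 989 and 832 FPKM in WT_FGO (47 and 45 reads) and went to 253 and 275 FPKM in WT_MII (21 and 32 reads), and the groups did not overlap. The mean fell 3.45-fold, from 911 ± 111 to 264 ± 15.8 FPKM (SD, n = 2 each), with a log2 change of -1.78 ± 0.24 (SE, limma adjusted p = 0.0142). In WT_FGO Oosp2 stood above Oosp1, with Oosp1 at 0.124 and 0.222 of its level in the same library, and in WT_MII Oosp1 was 44.6 and 54.7 times Oosp2. The 3 Oosp genes together took 0.0583% and 0.0559% of the library denominator in WT_FGO and 1.03% and 1.35% in WT_MII.

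**Figure D2:**
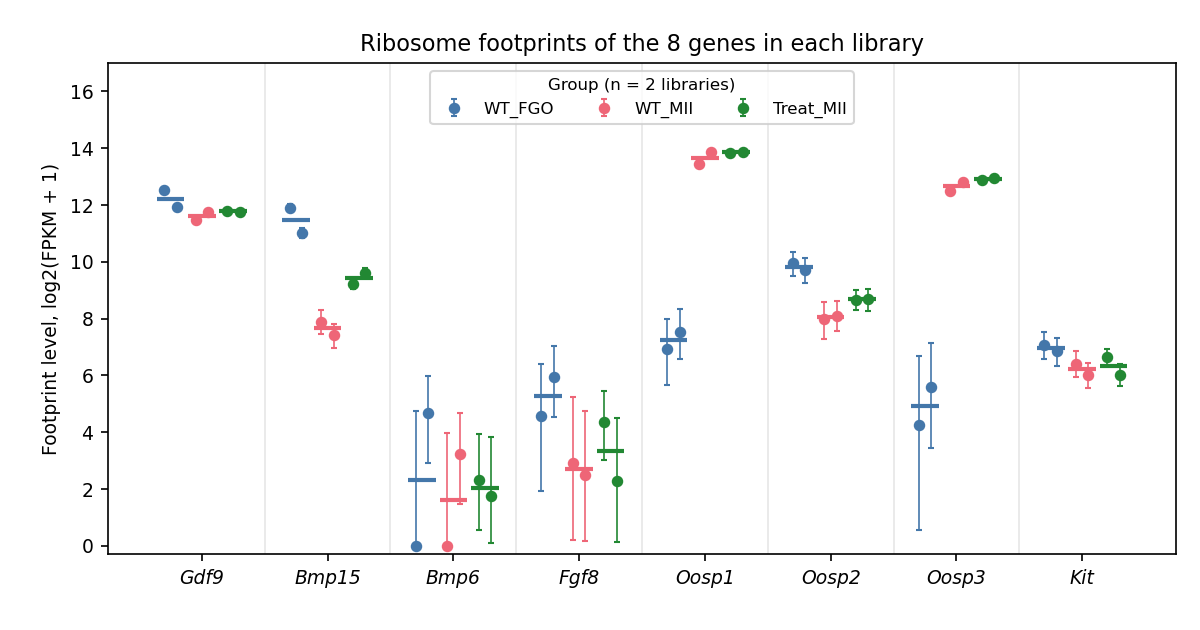
Footprint level of the 8 genes in each of the 6 libraries, as log2(FPKM + 1), with exact 95% counting intervals as bars and group means as lines. Oosp1 and Oosp3 sit above 12 on this scale in all 4 metaphase II libraries, and Bmp15 is lower in WT_MII than in the other groups.

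Bmp15, the X-linked growth factor, was at 3841 and 2077 FPKM in WT_FGO (426 and 262 reads) and went to 237 and 169 FPKM in WT_MII (46 and 46 reads). No WT_MII library came near the WT_FGO range. The mean went from 2959 ± 1247 to 203 ± 47.9 FPKM (SD, n = 2 each), 14.6-fold lower, and the log2 change was -3.81 ± 0.37 (SE, limma adjusted p = 0.00498). Its rank among all genes went from 20 and 37 to 486 and 722.

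Gdf9, its partner ligand, was at 5899 and 3883 FPKM in WT_FGO and went to 2822 and 3417 FPKM in WT_MII, from 551 to 1044 reads. The groups did not overlap, but the log2 change of -0.62 ± 0.23 (SE) had a limma adjusted p of 0.183. The result depended on the scaling and on the model of the spread. Centred on the median log2 ratio of each library the Gdf9 change was -0.09. With quantile normalization it was -0.95 and called (limma adjusted p = 0.0122). With precision weights on recovered reads, which give all genes a shared spread, it was -0.58 and called (limma adjusted p = 6.94e-05). Gdf9 ranked 13 and 16 in WT_FGO and 32 in both WT_MII libraries, so it stayed among the genes with the most footprints per length. Within a library Gdf9 was 1.54 and 1.87 times Bmp15 in WT_FGO and 11.9 and 20.2 times Bmp15 in WT_MII, and the groups did not overlap. This ratio was not tested. In WT_FGO Oosp1 was 0.0208 and 0.0475 times Gdf9, and Oosp1 was 3.99 and 4.40 times Gdf9 in WT_MII.

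**Figure D3:**
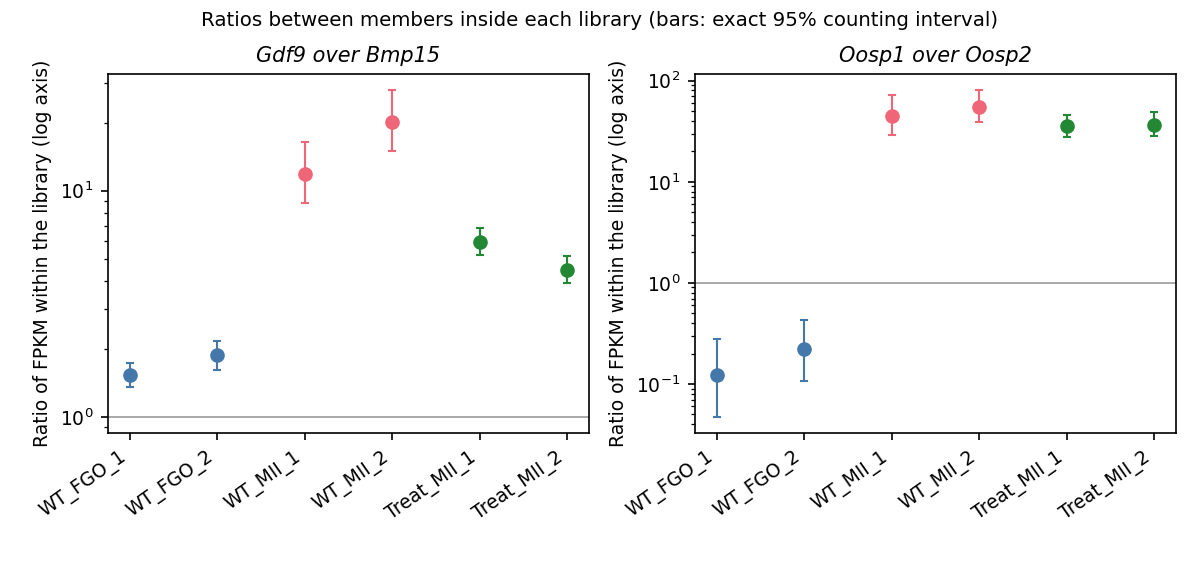
Ratio of FPKM between 2 genes of the same library, on a log axis, with exact 95% counting intervals. Gdf9 over Bmp15 ran from 1.54 in WT_FGO to 20.2 in WT_MII and was 5.94 and 4.46 in Treat_MII, and Oosp1 over Oosp2 crossed 1 between WT_FGO and both metaphase II groups.

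Kit, the receptor of KIT ligand, was at 134 and 114 FPKM in WT_FGO and went to 84.6 and 63.4 FPKM in WT_MII, with 36 to 43 reads in each of these libraries. The WT_MII libraries were both lower, but the log2 change of -0.75 ± 0.42 (SE) did not pass the test (limma adjusted p = 0.391), and its 95% interval ran from -1.77 to 0.28.

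Fgf8 and Bmp6 were near the limit of what these libraries can measure. Fgf8 was at 23.0 and 60.5 FPKM in WT_FGO (2 and 6 reads) and went to 6.56 and 4.69 FPKM in WT_MII (1 read in each), with a log2 change of -2.55 ± 0.96 (SE, limma adjusted p = 0.183). Bmp6 had 0 and 4 reads in WT_FGO and 0 and 3 reads in WT_MII, which was 0 and 24.4 FPKM and 0 and 8.49 FPKM. For the libraries with 0 reads, a floor of 3 reads stands at 20.8 FPKM of Bmp6 in WT_FGO and 11.9 FPKM in WT_MII, and the exact 95% counting interval reaches 25.6 and 14.6 FPKM. A difference between stages was not detectable for Bmp6 at this depth.

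The calls of maturation rest on the spread shared by all 6 libraries. With only WT_FGO and WT_MII in the fit none of the 8 genes was called (limma adjusted p of 0.116 for Oosp1 and Oosp3, 0.136 for Bmp15 and 0.158 for Oosp2), and no gene of the table was, although 2858 had an unadjusted p under 0.05. Leaving out either Treat_MII library also ended the 4 calls (adjusted p from 0.0987 to 0.118), with the changes as they were. Without the first WT_MII library Bmp15 (adjusted p = 0.0642) and Oosp2 (0.0517) were not called, and without the second Bmp15 was not (0.0734). Without the 2 libraries that stood apart by summed granulosa markers, the changes were 6.93 for Oosp1, 8.57 for Oosp3, -1.84 for Oosp2 and -4.49 for Bmp15.

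**Figure D4:**
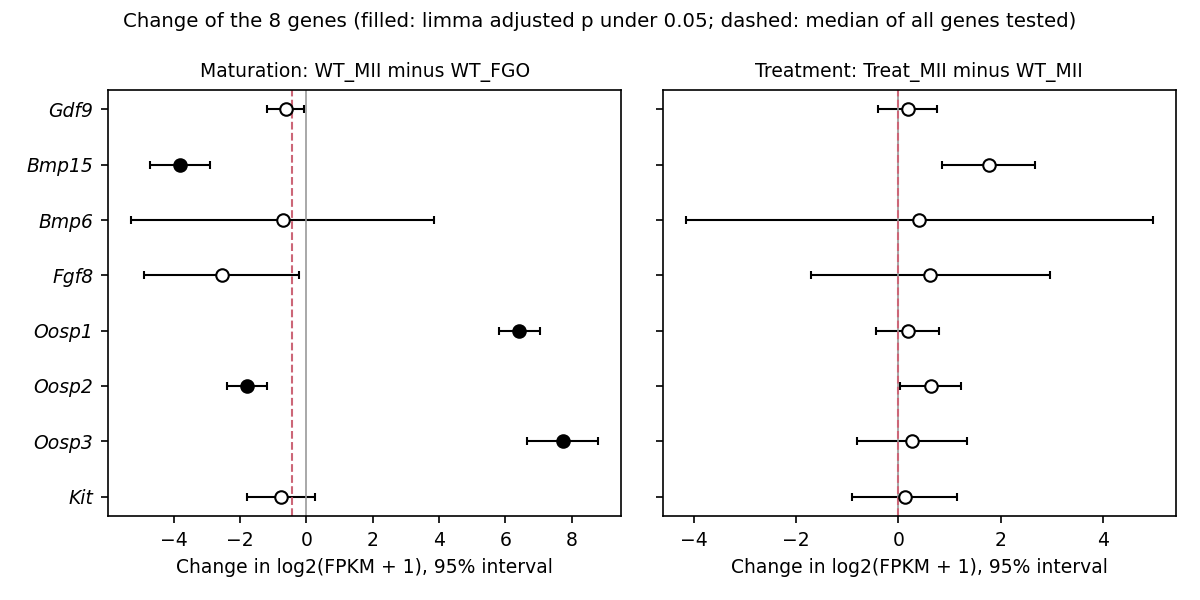
Change of log2(FPKM + 1) at maturation (left) and with treatment (right) with 95% intervals from limma, filled where the adjusted p is under 0.05, and the median of all genes as a dashed line. At maturation Oosp1 and Oosp3 lie far to the right and Bmp15 and Oosp2 to the left, and no gene is filled for treatment.

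The treatment was examined by comparing Treat_MII with WT_MII. None of the 8 genes was called in either direction by limma, and 0% of all genes tested were, while 882 genes had an unadjusted p under 0.05 (5.83%). For 4 of the 8 genes (Gdf9, Bmp15, Oosp2 and Oosp3) the lower treated library exceeded the higher control, as it did for 16.2% of all genes, and for none was the reverse seen (15.6% of all genes).

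Bmp15 showed the largest treatment difference of the 8 genes on the log2 scale. It was at 598 and 781 FPKM in Treat_MII (233 and 253 reads) against 237 and 169 FPKM in WT_MII, and the groups did not overlap. The mean of 689 ± 129 FPKM (SD, n = 2) was 3.39 times that of WT_MII and still 4.29-fold under that of WT_FGO. The log2 change was 1.76 with a 95% interval of 0.86 to 2.67 and a limma adjusted p of 0.700. It ran from 1.52 to 2.01 over the alternatives and was called in 1 of 16, the fit with precision weights on recovered reads (adjusted p = 1.84e-05), which gives all genes 1 shared spread.

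Within a library, Gdf9 was 5.94 and 4.46 times Bmp15 in Treat_MII, between the ratios of WT_FGO and WT_MII. The 12 oocyte markers had a median treatment change of 1.12, against 0 for all genes, with none called, and a median maturation change of -2.74, with 9 lower and 1 (Dazl) higher. Depth was also highest in Treat_MII. The part of either in the Bmp15 values was not tested.

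Oosp2 was at 407 and 410 FPKM in Treat_MII (68 and 57 reads), above 253 and 275 FPKM in WT_MII, with a log2 change of 0.63 (95% interval 0.04 to 1.23, limma adjusted p = 0.842). Bmp15 stood above Oosp2 in both Treat_MII libraries, 1.47 and 1.90 times, and below it in WT_MII, 0.939 and 0.616 times. The counting interval of the first of these WT_MII ratios, 0.549 to 1.66, includes 1.

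Oosp1 and Oosp3 did not pass the test for treatment, and their intervals bound the difference. Oosp1 was at 14459 and 15094 FPKM in Treat_MII and again ranked 1, and the control of 15029 FPKM lay inside that range. Its log2 change was 0.18 (95% interval -0.43 to 0.80), and without the first WT_MII library it was -0.02. Oosp3 was at 7518 and 7970 FPKM with a log2 change of 0.26 (95% interval -0.81 to 1.33), and Oosp1 was 1.92 and 1.89 times Oosp3, beside 1.96 and 2.07 times in WT_MII.

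Gdf9 was at 3550 and 3480 FPKM in Treat_MII, just above its controls, with a log2 change of 0.18 (95% interval -0.39 to 0.75) that turned to -0.04 with quantile normalization. Kit, at 98.7 and 64.2 FPKM, overlapped its controls (log2 change 0.12 ± 0.42, SE). Fgf8, with 6 and 1 reads, was at 19.6 and 3.93 FPKM, and Bmp6, with 2 and 1 reads, at 3.95 and 2.37 FPKM, so that neither can be ordered against WT_MII.

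Treat_MII was also set against WT_FGO, a comparison that shares libraries with both others. Oosp1 was higher by 6.61 ± 0.25 (log2, SE, limma adjusted p = 0.000514) and Oosp3 by 7.99 ± 0.44 (adjusted p = 0.00117), where 2.86% of all genes were called higher. Bmp15 was called lower at -2.05 ± 0.37 (limma adjusted p = 0.0429), where 1% of all genes were, and Oosp2 at -1.15 ± 0.24 was not (adjusted p = 0.0650). Treat_MII lay above WT_FGO for 2 genes (16.6% of all) and below for 5 (28.9% of all), as in maturation. The calls of Oosp1 and Oosp3 ended with only the compared groups (adjusted p of 0.0508 and 0.0602), and that of Oosp3 also without either WT_MII library. The Bmp15 call was lost in 11 of 16 alternatives, among them leaving out any 1 library (adjusted p up to 0.323 over the alternatives).

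The order of levels per coding length shows the exchange of places. In WT_FGO it ran Gdf9, Bmp15, Oosp2, then Oosp1 and Kit, whose ranges overlapped, then Fgf8, Oosp3 and Bmp6, whose ranges overlapped as well. The Gdf9 and Bmp15 means of WT_FGO differed by less than the sum of their SDs, although Gdf9 was higher in each library. In WT_MII it ran Oosp1, Oosp3, Gdf9, Oosp2, Bmp15, Kit, and Fgf8 and Bmp6 with overlapping ranges. In Treat_MII Bmp15 stood above Oosp2 and the rest of the order was that of WT_MII.

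Genes of the pathways of these ligands and of KIT were counted next, from lists of known pathway genes. The libraries are of pooled oocytes, so the granulosa and cumulus cells that receive GDF9 and BMP15 were not measured. Of 12 tested BMP and TGF-beta receptors none was called at maturation or with treatment. Of 11 SMADs and direct targets, the intracellular carriers of the BMP and TGF-beta signal and genes they switch on, none was called in any comparison, and neither was any of 6 proprotein convertases, which cut the ligand precursors, or of 11 FGF receptors and feedback genes. The median maturation change was 0.72 for the receptors, -0.44 for the SMADs and targets, 0.16 for the convertases, 0.88 for the FGF list and -0.13 for KIT signalling, beside -0.44 for all genes. Single libraries decided these medians. The receptor median was 0.076 without the second WT_MII library and 1.36 without the first. The SMAD median was -1.22 without the first WT_MII library and 0 without the first WT_FGO library. The convertase median was -0.29 without the first and 0.60 without the second WT_MII library, the FGF median 0 and 1.40 without the same libraries, and the KIT median -0.87 without the first and 0.43 without the second WT_FGO library. In Treat_MII against WT_FGO 2 receptors were called. Bmpr2, the receptor that binds BMP15 and GDF9, had an FPKM of 112 and 117 in the fully grown, 50.6 and 32.0 in the control metaphase II and 19.4 and 19.8 in the treated libraries (log2 change -2.49, limma adjusted p = 0.0486). Acvr1, a type I receptor, was listed at 0 in both WT_FGO libraries and at 23.7 and 26.1 FPKM in Treat_MII (12 and 11 reads, limma adjusted p = 0.0441), above the 20.8 and 18.3 FPKM that 3 reads are worth in WT_FGO. Bmpr2 was called in 2 and Acvr1 in 5 of 16 alternatives, and leaving out any 1 library ended both calls (adjusted p from 0.0536 to 0.219).

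Of 18 tested other ligands and antagonists of the TGF-beta family, Tgfb2 was the 1 called, lower at maturation. Its FPKM was 144 and 98.4 before maturation, 9.14 and 3.27 in the controls after it and 34.1 and 38.3 in the treated libraries. The maturation change was -4.19 (log2, limma adjusted p = 0.0185). The WT_MII values are 2 and 1 reads, under the 13.7 and 9.80 FPKM that 3 reads are worth there. The call was lost without any 1 WT_FGO or Treat_MII library (adjusted p from 0.0623 to 0.118). The list had a median change of -2.24, beside -0.44 for all genes. This median was -3.88 with a pseudocount of 0.1 and -1.47 without both libraries that stood apart. The list holds Inha and Inhba, which are granulosa markers too and which the second WT_FGO library held at 747 and 139 FPKM. Of 24 tested genes of KIT signalling, the adaptor gene Shc1 was the 1 called, higher at maturation. It was listed at 0 in both WT_FGO libraries and was at 24.4 and 14.9 FPKM in WT_MII (7 and 6 reads, limma adjusted p = 0.0458). In WT_FGO 3 reads of Shc1 are worth 18.3 and 16.1 FPKM, more than the lower WT_MII value, and leaving out any 1 library ended the call (adjusted p from 0.0728 to 0.141). With treatment no gene of any of these lists was called.

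**Figure D5:**
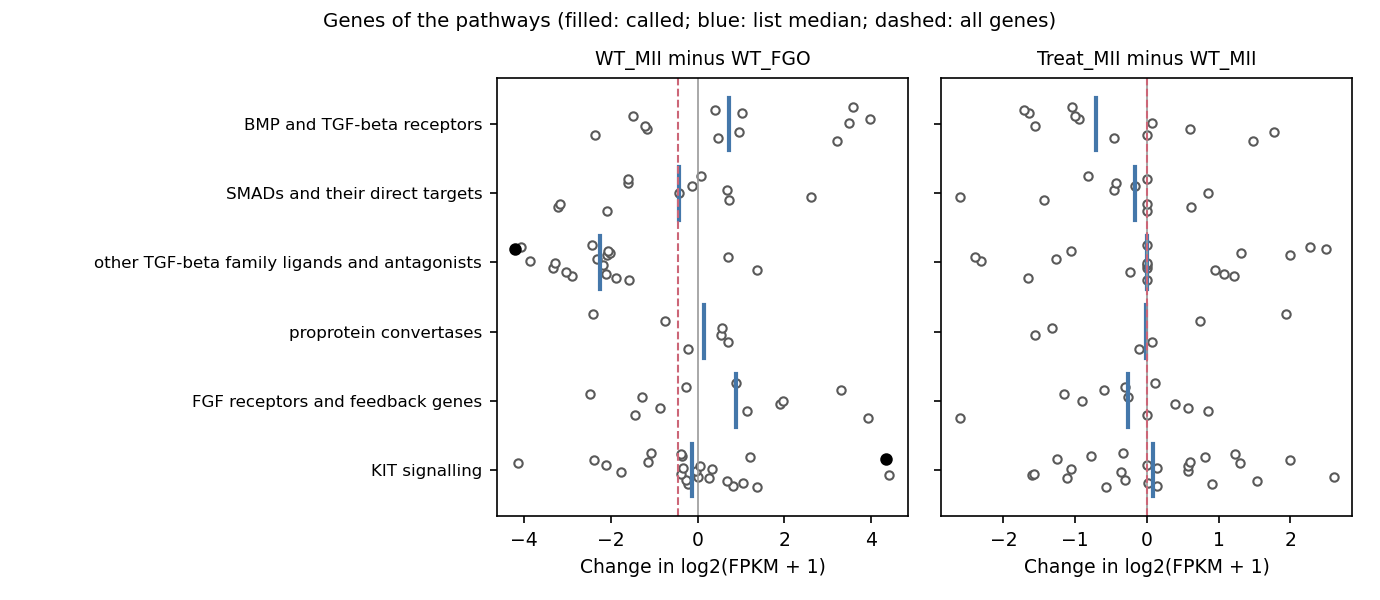
Change of log2(FPKM + 1) of each tested gene of the pathway lists at maturation (left) and with treatment (right), filled where limma's adjusted p is under 0.05, with the list median as a bar and the median of all genes as a dashed line. Tgfb2 and Shc1 are the 2 filled points, both at maturation.

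For 6 of the 8 genes, those above 0 in all libraries with a mean of at least 20 FPKM, the genes with the most similar pattern were found by the root mean square difference of mean-centred log2(FPKM + 1) over the 6 libraries, among 3045 other genes. Fgf8 and Bmp6 did not qualify. Bmp15 was closest to Zp3, a zona pellucida glycoprotein (difference 0.22), then Top2a and Elobl. Zp3 had an FPKM of 7769 and 4164 in the fully grown, 486 and 497 in the control metaphase II and 1419 and 1429 in the treated libraries, the same order of groups as Bmp15.

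Oosp1 was closest to Ccndbp1 (0.15), Tcl1b1 and Birc3, and Oosp3 to Oosp1 itself (0.67), Tcl1b1 and Omt2b. Oosp1 had 6 genes within 0.5 of it and Oosp3 had none, where Gdf9 had 457, Oosp2 455, Kit 423 and Bmp15 44. The Oosp3 pattern rests on 1 and 3 reads in WT_FGO, so its count says little. Ccndbp1 (16.5 and 21.8 FPKM) and Birc3 (11.4 and 15.1 FPKM) were low in WT_FGO. Top2a, named for Bmp15, was low in WT_MII (5.29 and 2.83 FPKM). Oosp2 was closest to Txnl1 (0.11), Hspa5 and Tuba1b, Gdf9 to Fbxw28 (0.10), Farsb and Wdr26, and Kit to Hsd17b4 (0.17), Psap and Prr14. By Pearson correlation 2 of these 18 genes would have been named. These are descriptions over 6 libraries that share their depth and library total.

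The motif of the G-quadruplex (4 runs of 3 or more G that 1 to 7 bases separate) was searched in the transcripts because the treatment binds such structures. Of the 8 genes Bmp6 held it, in its 5′-UTR of 826 bases, where 7.28% of the 14541 genes did. None held it in the coding sequence (4.305% of all genes) or in the 3′-UTR (11.1% of all genes). No match says only that these letters are not in the annotated transcript. Coding words of 28 bases, about the length of a footprint, were not shared with another gene for 7 of the genes, and for Bmp6 0.664% of them were, so that the counts of the 3 Oosp genes could be told apart.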

How the data were processed

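The authors deposited FPKM values per gene for 6 Ribo-lite libraries. Per the labels, the processing notes name cutadapt 1.14, Bowtie2 2.2.2, STAR 2.5.3a and mm10. The counting program, the annotation and the use of molecular identifiers are not given in the sources used here. No spike-in is stated. Of 22442 entries, 26 that repeated a gene name were dropped. Whole reads were recovered as FPKM times coding length (GENCODE M21) within 0.02 reads for 98.4% of 21937 genes with a length, the 8 genes included. A count of 3 reads was the floor.

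Groups were compared on log2(FPKM + 1) by limma 3.58.1 under R 4.3.3 (lmFit, eBayes with a trend), all 6 libraries in 1 fit. The fit was also run on simulated reads with known folds. These gave all genes 1 fixed dispersion, so that run cannot vouch for the calls here. Changes on the log2(FPKM + 1) scale understate those of low genes. With 2 libraries against 2 an exact two-sided permutation test cannot go below 0.333. Named genes were the 8, the pathway genes called, and the 3 most similar genes of each. Genes and lists were chosen with earlier results of these data known. Marker genes were named after their values were seen. Protein sequences were not used here. Alternatives were another pseudocount, other filters, centring, quantile normalization, a replicate block, only the compared groups, no trend, precision weights and leaving out libraries.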

Additional observations from a re-analysis of the deposited data

How the results depend on the processing

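The number of genes called among the 8 depended on the fit. For maturation it was 2 higher and 2 lower. It was 0 in both directions with only the compared groups, without a mean-variance trend it was 0 lower, and with quantile normalization or precision weights 3 lower, with Gdf9 added. Leaving out 1 library at a time gave 0 to 2 higher and 0 to 2 lower. Leaving out the second WT_FGO and the first WT_MII library, chosen after seeing the data, gave 1 lower. For treatment it was 0, and precision weights gave 1 higher. For Treat_MII against WT_FGO it was 2 higher and 1 lower. The lower count was 0 with a pseudocount of 0.1, with centring, with only the compared groups and without a trend, 2 when a mean of 5 FPKM was required, and 3 with quantile normalization or precision weights. The higher count was 0 with only the compared groups. Leaving out libraries gave 1 to 2 higher and 0 to 1 lower. Some of these fits hold fewer libraries, and the cause of the differing counts was not tested. Over all genes, maturation gave 555 higher and 468 lower, against 803 and 1575 with precision weights, 188 and 140 without a trend and 0 with only the compared groups. Treatment gave 0, against 65 and 100 with precision weights, 17 and 347 without the first and 31 and 387 without the second WT_MII library, and 363 and 398 higher with none lower without the first and the second Treat_MII library. Treat_MII against WT_FGO gave 433 and 152, against 654 and 56 with centring, 31 and 1 with only the compared groups, 56 and 3 without a trend and 850 and 1984 with precision weights. Single libraries left out gave 0 to 902 higher and 0 to 1066 lower at maturation, and 120 to 942 higher and 9 to 784 lower for Treat_MII against WT_FGO. A lone library was assumed to vary like the other groups.

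Same-numbered libraries did not deviate together from their group means (r of 0.0342, 0.0176 and 0.0189 for the pairs of groups, over 2706 genes), so they were not paired. With a replicate block the calls were 2 higher and 2 lower at maturation, 0 with treatment, and 2 higher and 1 lower for Treat_MII against WT_FGO.

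Changes that turned sign had not been called in their comparison. Bmp6 at maturation, -0.71, ran from -3.04 to 1.62 with single libraries left out and was 3.25 without both that stood apart. Bmp6 with treatment was 0.41, turned to -0.055 with precision weights and ran from -1.22 to 2.03 with single libraries left out. Bmp6 in Treat_MII against WT_FGO was -0.30, turned to 1.02 with a pseudocount of 0.1 and 0.065 with centring, and ran from -2.64 to 2.03 with single libraries left out. With treatment, Gdf9 was -0.039 with quantile normalization. Leaving out single libraries, the treatment change ran from -0.025 to 0.39 for Oosp1, from -0.19 to 0.42 for Kit and from -0.41 to 1.65 for Fgf8. Gdf9 in Treat_MII against WT_FGO was 0.18 with centring. The changes of Oosp1, Oosp3, Bmp15 and Oosp2 at maturation kept their direction in all 16 alternatives, from 6.13 to 6.96, 7.05 to 8.57, -4.49 to -3.27 and -1.90 to -1.24, and were called in 13, 13, 9 and 11 of them. Few reads limit Fgf8, Bmp6 and Oosp3 in WT_FGO. Of 240 list medians recomputed, 35 moved by more than the spread between replicates.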
